A study of Mus musculus with 6 samples.

Results

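Glycolysis and HIF target genes were followed in 6 mouse tumours, as 33 genes chosen by symbol out of the 15295 rows of the deposited count table. All 33 symbols were found by Entrez number and all 33 passed the filter on low counts. They comprise 14 glycolytic enzymes and 19 other genes tied to hypoxia-inducible factor (HIF), among them transporters, oxygen sensors and secreted products. These 19 are called other HIF targets below, although they include Hif1a, a subunit of HIF itself. The tumours grew from NA13, a murine bladder cancer line, with the strain given as C57BL/6. In 3 of them the labels give an shRNA against Ddr2 (shDdr2 1 to 3), and in 3 a scrambled shRNA (control 1 to 3), and all 6 tumours also received IgG. The labels name 1 cell line. Whether each tumour of a group had its own host is not stated, and the p-values reflect variation among these 6 libraries, some of which could be technical.

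Glycolysis turns glucose into pyruvate in the cytosol, and lactate dehydrogenase turns pyruvate into lactate when respiration is limited or bypassed. HIF is a transcription factor whose alpha subunit is marked for destruction by oxygen-dependent prolyl hydroxylases, so that it builds up when oxygen is scarce. With its partner ARNT it binds short DNA elements and raises transcription of most glycolytic enzymes, of glucose and lactate transporters, and of genes of acid balance, mitophagy, vessel tone and collagen folding. Solid tumours often use this programme, both where oxygen is short and where oxygen is not limiting.

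Total counts ranged from 15560571 to 19522985 per library. The targeted gene, Ddr2, a collagen-binding receptor tyrosine kinase, stood at 4.84, 19.0 and 28.6 counts per 1000000 counts (CPM) in shDdr2 1 to 3, against 6.42, 16.7 and 20.5 CPM in control 1 to 3. The values overlap, and an exact permutation test of log2 CPM gave p = 0.9 (two-sided, smallest possible 0.1). Directions below are therefore between libraries as labelled. Counts of a whole tumour do not separate Ddr2 of NA13 cells from that of other cells. Summed fibroblast markers (7 of 7 in the table) stood at 1198, 3558 and 9879 CPM in shDdr2 1 to 3, against 2327, 4087 and 4992 CPM in control 1 to 3. As for Ddr2, shDdr2 1 was lowest and shDdr2 3 highest. The part of fibroblast RNA in the values of Ddr2 was not tested. Basal keratins mark the tumours, with Krt5 between 4939 and 5954 CPM and Krt14 between 4083 and 5500 CPM. Of the other urothelial and epithelial markers in the table, Krt18, Krt8, Epcam and Pparg were lower in every shDdr2 tumour than in any control tumour. Upk1b, Upk2 and Cdh1 overlapped. While edgeR called 0 of the list, DESeq2 called Pparg lower (adjusted p = 0.0493), against 0.262% of all genes called. On principal component 1 (50.1% of the variance) shDdr2 1 stood apart, at -85.2 against -16.3 to 45.7 in the other 5 libraries. In a bulk tumour, fewer cells of a type and less RNA per cell cannot be told apart.

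The letters that HIF recognises, ACGTG or GCGTG, were searched on both strands in RefSeq promoter windows (GRCm38.p6), each from 250 bases before to 50 bases after a start site. Windows were found for 31 members, all but Ndrg1 and Bhlhe40. Windows on a chromosome that holds no member were not searched. ACGTG occurred in 22 of these 31 genes (71.0%), against 28.4% of the 11023 tested genes with a searched window. GCGTG occurred in 20 of 31 (64.5%), against 54.0%. A gene was counted when any of its windows matched. By window, ACGTG occurred in 55.3% of the members' 47, against 24.5% of the 14014 of tested genes. GCGTG occurred in 51.1%, against 48.4%. ACGTG was found in 9 of 14 glycolytic enzymes and in 13 of 17 other HIF targets. A match describes letters only, and ACGTG overlaps the E-box CACGTG, which 5 of the 31 genes hold against 11.3% of tested genes. The windows of Adm, Ankrd37 and Car9, the members with the lowest fitted values, and of the enzyme Pgk1, for its pair of matches, follow 5′ to 3′ on the strand of the gene, with every match in capitals (CACGT and CACGC are the same letters on the other strand).
Adm, chr7:110627407-110627706, plus strand: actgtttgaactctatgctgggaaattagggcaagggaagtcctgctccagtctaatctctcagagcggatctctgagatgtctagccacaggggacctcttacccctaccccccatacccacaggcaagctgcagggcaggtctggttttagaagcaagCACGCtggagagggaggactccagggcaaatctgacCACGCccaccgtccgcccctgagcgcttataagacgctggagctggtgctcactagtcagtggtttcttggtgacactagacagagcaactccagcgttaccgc
Ankrd37, chr8:45999801-46000100, minus strand: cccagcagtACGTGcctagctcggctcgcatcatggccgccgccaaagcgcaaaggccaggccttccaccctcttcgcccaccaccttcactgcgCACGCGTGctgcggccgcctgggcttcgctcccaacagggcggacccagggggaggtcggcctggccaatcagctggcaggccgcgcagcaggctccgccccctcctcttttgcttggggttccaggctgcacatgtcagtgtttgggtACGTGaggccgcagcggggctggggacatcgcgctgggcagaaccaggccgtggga
Car9, chr4:43506776-43507075, plus strand: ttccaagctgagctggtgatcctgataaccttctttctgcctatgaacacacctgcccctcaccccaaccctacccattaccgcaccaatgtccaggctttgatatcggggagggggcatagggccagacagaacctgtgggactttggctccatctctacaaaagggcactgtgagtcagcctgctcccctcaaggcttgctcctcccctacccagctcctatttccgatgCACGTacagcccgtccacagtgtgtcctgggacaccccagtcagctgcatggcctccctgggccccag
Pgk1, chrX:106186850-106187149, plus strand: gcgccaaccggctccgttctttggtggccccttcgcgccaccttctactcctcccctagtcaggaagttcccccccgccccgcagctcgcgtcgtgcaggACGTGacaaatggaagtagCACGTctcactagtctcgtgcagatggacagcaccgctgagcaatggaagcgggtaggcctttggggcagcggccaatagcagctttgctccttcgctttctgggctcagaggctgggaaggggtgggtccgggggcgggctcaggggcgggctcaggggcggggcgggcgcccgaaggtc
The match nearest to the start site lies 18 bases before it in Car9 and 6 bases before it in Ankrd37, counted at its first base. Pgk1 holds a pair of ACGTG matches on opposite strands.

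The question of the comparison is whether glycolytic and HIF target transcripts differ in tumours with the shRNA against Ddr2. No member passed the test: edgeR's quasi-likelihood test with Benjamini-Hochberg adjustment over 14498 genes called 0 of 33, and 0% of all genes. The adjusted edgeR p was 1.00 for each member in the fit of all 6 libraries. Fitted values were below 0 in 27 of the 33 members, with a median log2 fold change (shDdr2 over control) of -0.25. Over all tested genes 42.9% were below 0 and the median was 0.04. At an unadjusted edgeR p under 0.05, 1 member (Adm) was lower, against 0.448% of all genes, and 0 were higher, against 0.993%. DESeq2 called 0 of 33 members and 0.262% of all genes. Values did not overlap between the groups and were lower in shDdr2 tumours in 6 members (18.2%), against 2.11% of all genes, and 0 members were higher without overlap, against 2.21%. These 6 are Adm, Ndrg1, Egln3, Kdm3a, P4ha1 and Eno1. The members had been chosen with earlier results of these data known, so these counts describe them and are not independent support for a direction.

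**Figure D1:**
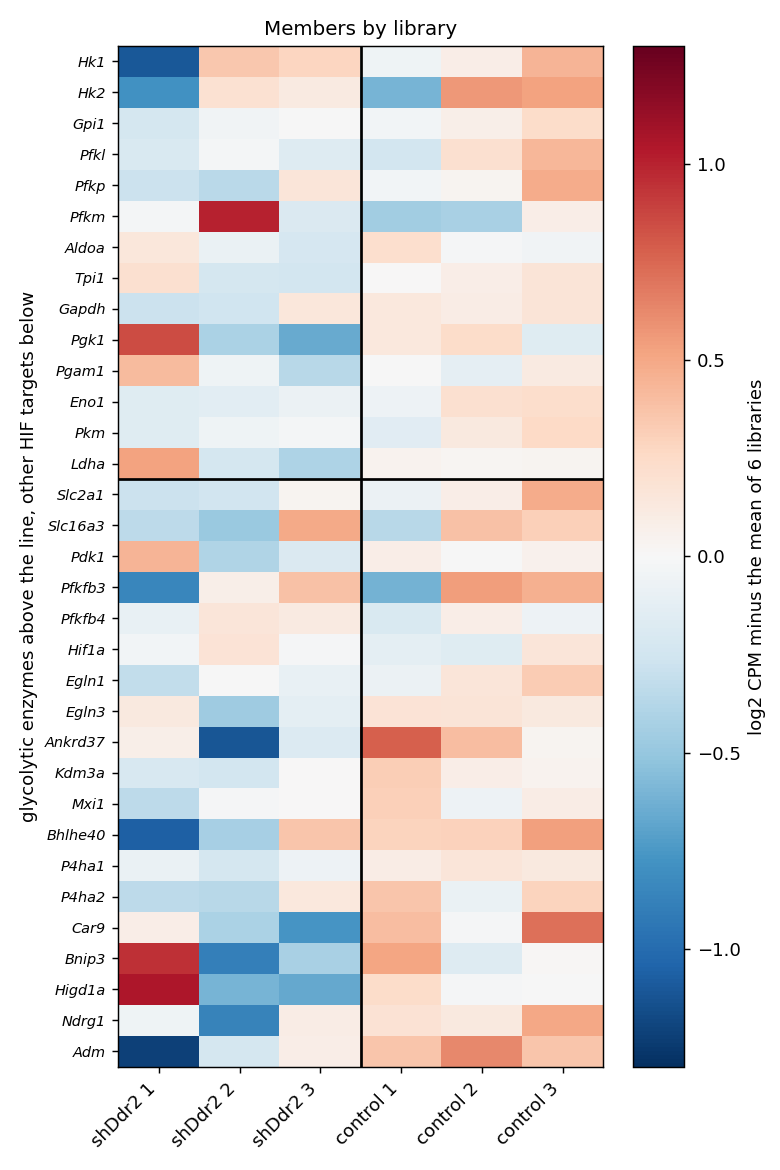
Log2 CPM of each of the 33 members (rows) minus its mean over the 6 libraries (columns), red above and blue below the mean; the vertical line separates shDdr2 from control libraries and the horizontal line glycolytic enzymes from other HIF targets. Control cells are mostly pale red, while shDdr2 1 is deep blue for Hk1, Bhlhe40 and Adm (-1.10, -1.06 and -1.21) and deep red for Pgk1, Bnip3 and Higd1a (0.84, 0.95 and 1.05).

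The glycolytic enzymes lay closer to 0 than the other HIF targets. Of the 14 enzymes 11 had fitted values below 0, with a median log2 fold change of -0.17 and a range of -0.35 to 0.60. Of the 19 other HIF targets, Hif1a (0.08) included, 16 were below 0, with a median of -0.28 and a range of -0.81 to 0.12. The gap between the medians was 0.11, but 0.03 without control 1 and 0.17 without shDdr2 3, and it was not tested. Among transcripts of 2000 bases or more, the medians were -0.22 for 8 enzymes and -0.27 for 16 other HIF targets. Among shorter transcripts they were -0.055 for 6 enzymes and -0.76 for 3 other HIF targets. Mean log2 CPM of the enzymes, as a deviation from its mean over libraries, was -0.08, -0.03 and -0.12 in shDdr2 1 to 3, against -0.08, 0.08 and 0.21 in control 1 to 3. Control 1 thus lay within the shDdr2 range for the enzymes. For the other HIF targets the deviations were -0.13, -0.34 and -0.04 in shDdr2 1 to 3, against 0.14, 0.14 and 0.24 in control 1 to 3. Here the groups did not overlap, with shDdr2 2 lowest and control 3 highest. Some marker lists also held genes lower in shDdr2 tumours without overlap, against 2.11% of all genes. Among these were 4 of 9 urothelial and epithelial markers and 2 of 7 neutrophil markers (S100a8 and S100a9). Of the 7 neutrophil markers 3 had fitted values above 0, and 1 of them (Il1r2) was higher without overlap, against 2.21% of all genes. Summed neutrophil markers stood at 70.5, 56.9 and 102 CPM in shDdr2 1 to 3, against 112, 100.4 and 89.2 CPM in control 1 to 3, and summed urothelial and epithelial markers at 10983, 11674 and 10213 CPM, against 11063, 10353 and 12260 CPM. Both sums overlapped, but Krt5 and Krt14 made up most of the urothelial and epithelial sum. With these 9 markers weighted equally, their mean deviation of log2 CPM was -1.003, -0.005 and 0.028 in shDdr2 1 to 3. In control 1 to 3 it was 0.528, 0.288 and 0.164, without overlap. The mean deviation of the 7 neutrophil markers overlapped between the groups. The part of these cells in the members' values was not tested.

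**Figure D2:**
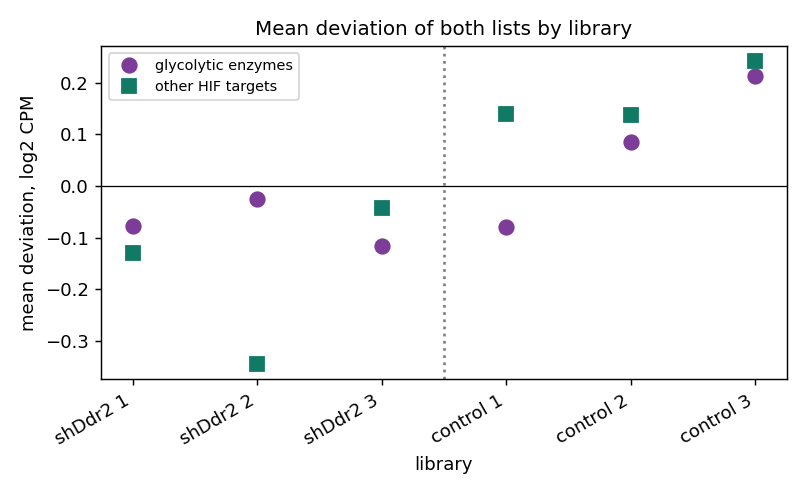
Mean deviation of log2 CPM from the mean over 6 libraries (vertical axis) in each library (horizontal axis, shDdr2 left of the dotted line) for 14 glycolytic enzymes (circles) and 19 other HIF targets (squares). Squares lie at or below -0.04 in shDdr2 and at or above 0.14 in control libraries, while the circle of control 1 (-0.08) lies within the shDdr2 range.

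Among the enzymes, hexokinases and phosphofructokinases come first, since they commit glucose to the pathway. Hk2, the inducible hexokinase, stood at 96.2, 190.1 and 180.1 CPM in shDdr2 1 to 3, against 109, 245 and 239 CPM in control 1 to 3. The number 1 library was low in both groups, and the values overlap. Hk1, the widely expressed hexokinase, stood at 67.9, 186 and 177 CPM in shDdr2 tumours, against 140.3, 154 and 199 CPM in control tumours. Its log2 fold change was -0.19, but 0.14 without shDdr2 1, which was the lowest library. Pfkl and Pfkp, the liver-type and platelet-type phosphofructokinases, differed by -0.29 (SE 0.23) and -0.32 (SE 0.24) on the log2 scale, but by -0.13 and -0.14 without control 3. Their levels were 173 ± 10.99 and 151 ± 30.5 CPM in shDdr2 tumours, against 211 ± 47.8 and 189 ± 38.6 CPM in control tumours (SD, n = 3), and overlapped.

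Pfkm, the muscle-type phosphofructokinase, had the highest fitted value of all 33 members. It stood at 43.3, 88.1 and 38.7 CPM in shDdr2 1 to 3, against 32.1, 32.98 and 46.9 CPM in control 1 to 3. Only shDdr2 2 was above every control tumour. The log2 fold change was 0.60 (SE 0.36, 95% interval -0.23 to 1.44), and 0.14 without shDdr2 2. Per length, Pfkm made up 15.4%, 26.3% and 12.1% of the phosphofructokinase transcripts in shDdr2 1 to 3, against 11.2%, 9.73% and 10.9% in control 1 to 3. The share was thus above the control range in all 3 shDdr2 tumours.

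Other muscle-type enzymes, which are not members, separated the groups further. Eno3, the muscle enolase, stood at 52.3, 117.02 and 17.2 CPM in shDdr2 1 to 3, against 5.07, 7.77 and 6.79 CPM in control 1 to 3. Pgam2, the muscle phosphoglycerate mutase, stood at 11.1, 27.0 and 4.42 CPM in shDdr2 tumours, against 2.05, 2.87 and 3.58 CPM in control tumours. Pygm, the muscle glycogen phosphorylase, stood at 17.8, 98.1 and 7.58 CPM in shDdr2 tumours, against 0.270, 1.67 and 1.45 CPM in control tumours. All 3 were higher in each shDdr2 tumour than in any control tumour, against 2.21% of all genes. Their log2 fold changes were 3.25 (SE 0.66), 2.33 (SE 0.65) and 5.19 (SE 1.14). None passed the edgeR test adjusted over all genes. DESeq2 called Eno3 (adjusted p = 2.23e-04) and Pygm (adjusted p = 3.64e-05) but not Pgam2 (adjusted p = 0.0728), against 0.262% of all genes called. Skeletal muscle markers, 14 of 15 of them in the table, moved the same way. Their summed level was 1160.4, 3831 and 499.8 CPM in shDdr2 1 to 3, against 13.5, 87.3 and 138 CPM in control 1 to 3, with Acta1 and Myh4 the most abundant. The part of muscle RNA in the values of Pfkm was not tested.

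**Figure D3:**
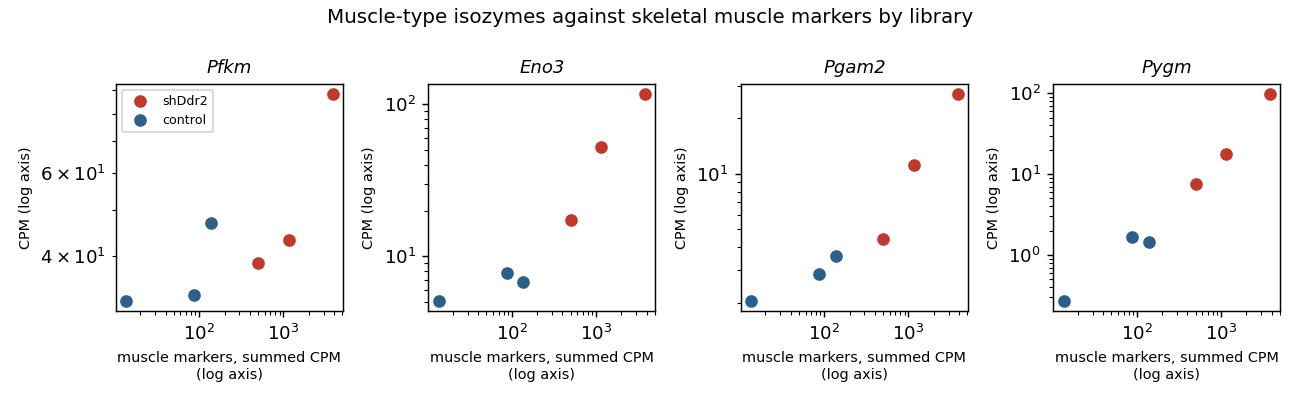
CPM of 4 muscle-type enzymes (vertical axes, log scale) against the summed CPM of 14 skeletal muscle markers (horizontal axes, log scale) in each of 6 libraries, red for shDdr2 and blue for control. Eno3, Pgam2 and Pygm are highest in shDdr2 2, at the highest marker sum (3831 CPM), and lowest in control 1, at the lowest (13.5 CPM). In the other shDdr2 libraries Pfkm lies within the control range of CPM, at marker sums above those of every control.

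The middle and lower steps of glycolysis carried the most abundant transcripts of the members. Per kilobase of transcript (RPKM, computed from CPM and annotated length), Ldha, which makes lactate, was highest at 1830 in shDdr2 and 1842 in control tumours. Pkm, a pyruvate kinase, followed at 915 and 1025 RPKM, and Aldoa, an aldolase, at 891 and 956 RPKM. These levels order the transcripts and are not differences between groups. Ldha stood at 4109, 2442 and 2168 CPM in shDdr2 1 to 3, against 2952, 2903 and 2921 CPM in control 1 to 3. The control tumours lay within a narrow band, with shDdr2 1 above it and the other shDdr2 tumours below it. Pgk1, the phosphoglycerate kinase, showed the same pattern, at 1519, 638 and 538 CPM in shDdr2 1 to 3, against 931, 999 and 757 CPM in control 1 to 3.

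The log2 fold changes of Ldha and Pgk1 were -0.0096 and 0.0043, but -0.34 and -0.61 without shDdr2 1. Pgam1, a phosphoglycerate mutase, and Tpi1, triosephosphate isomerase, were also highest in shDdr2 1, at 693 and 1069 CPM. Their means were 534 ± 146 and 883 ± 162 CPM in shDdr2 tumours, against 523 ± 42.5 and 988 ± 57.7 CPM in control tumours (SD, n = 3). Gpi1, the glucose phosphate isomerase, and Pkm differed by -0.18 (SE 0.21) and -0.16 (SE 0.24) on the log2 scale, and Aldoa by -0.10 (SE 0.23). All of these overlapped between the groups. The signs of Pgk1, Pgam1 and Ldha also turned with the scaling of the libraries.

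Eno1, an enolase, was the 1 enzyme whose groups did not overlap. It stood at 285, 289 and 301 CPM in shDdr2 1 to 3, against 303, 367 and 373 CPM in control 1 to 3. Control 1 lay just above the highest shDdr2 tumour. The log2 fold change was -0.25 (SE 0.19, 95% interval -0.71 to 0.20). Counts of Eno1 (chr4:150236721-150248879, plus strand, GRCm38 as are all gene coordinates here) are uncertain, because the table also lists Eno1b, whose transcript matches it at 99.5% over 1736 bases. Eno1b held more counts than Eno1 in every library, at 370 to 507 CPM in shDdr2 and 445 to 562 CPM in control tumours. Summed with Eno1b, the levels were 655, 706 and 808 CPM in shDdr2 1 to 3, against 841, 813 and 935 CPM in control 1 to 3, without overlap. The summed log2 fold change was again -0.25 (SE 0.22).

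Gapdh, the glyceraldehyde phosphate dehydrogenase, stood at 90.4, 91.3 and 121.0 CPM in shDdr2 1 to 3, against 121.0, 116.9 and 123 CPM in control 1 to 3. The shDdr2 3 tumour lay at the control level and the other shDdr2 tumours below it. The fitted log2 fold change was -0.25 (SE 0.20). Per length it stood at 74.9 and 89.3 RPKM in shDdr2 and control tumours, well below every other enzyme from Aldoa to Ldha. In GENCODE M21, 174 other genes hold a transcript that matches Gapdh over at least 300 bases at 90% identity or more, the most of any member. Of these, 2 have rows in the count table: Gapdh-ps15, at 99.5% over 1002 bases, and Peli2, at 90.8%. Gapdh-ps15 held 508, 734 and 736 counts in shDdr2 1 to 3, against 732, 742 and 779 in control 1 to 3. Gapdh itself held 1252, 1874 and 2108 counts, against 2243, 1956 and 1957. How the counting treated reads shared with such copies is not given in the sources used here, so the level of Gapdh is uncertain. Ldha has 13 such copies, Pkm 8, and Eno1 and Aldoa 6 each.

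**Figure D4:**
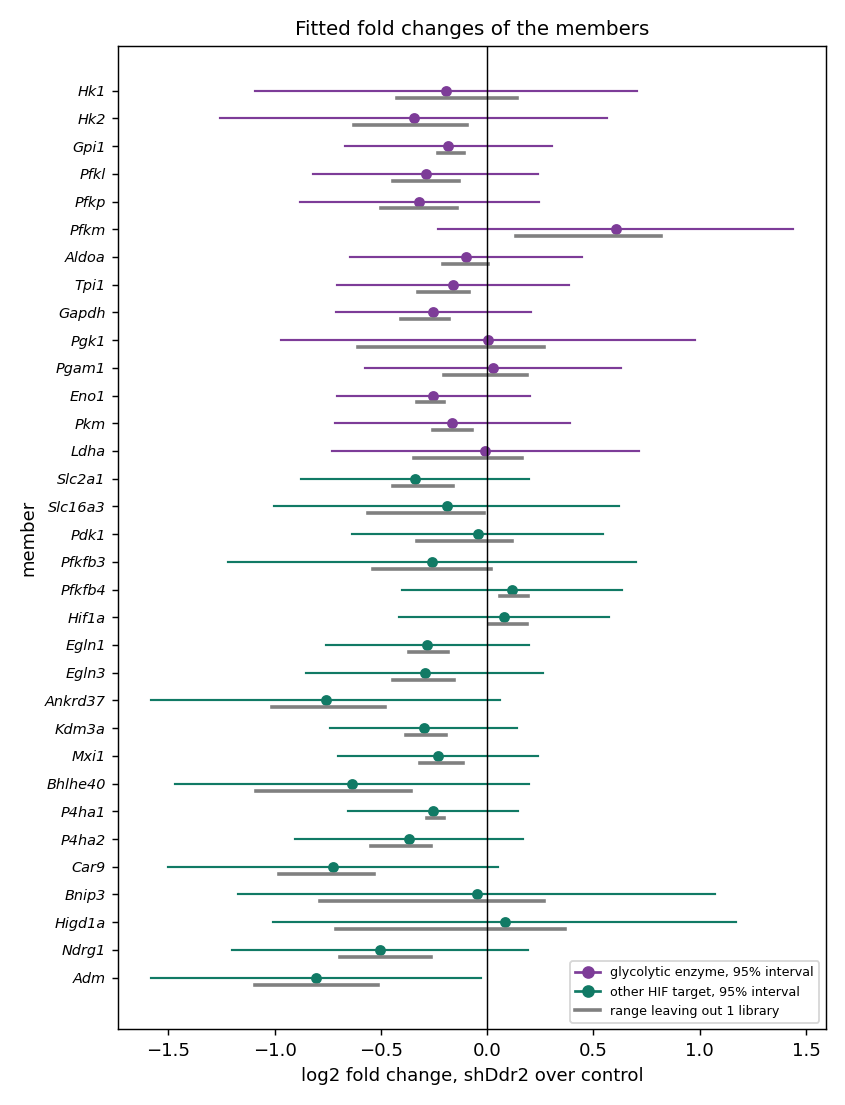
Fitted log2 fold change, shDdr2 over control (horizontal axis), of each of the 33 members (rows), with dots for the estimate, thin lines for its 95% interval and grey bars for the range when each library is left out in turn. The interval of Adm (-1.58 to -0.03) is the 1 that lies wholly below 0, and the grey bars of Pgk1, Bnip3 and Higd1a span 0 widely.

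Transporters and metabolic switches came next. Slc2a1, the glucose transporter GLUT1, stood at 244, 249 and 302 CPM in shDdr2 1 to 3, against 279, 313 and 413 CPM in control 1 to 3. Its log2 fold change was -0.34 (SE 0.23), but -0.16 without control 3, with overlap through shDdr2 3 and control 1. Slc16a3, the lactate exporter MCT4, was low throughout, at 18.8 ± 7.35 CPM in shDdr2 and 21.4 ± 5.60 CPM in control tumours (SD, n = 3). Pdk1, a kinase that restrains the oxidation of pyruvate in mitochondria, stood at 181, 102 and 116 CPM in shDdr2 1 to 3, against 141, 133 and 138 CPM in control 1 to 3, another gene highest in shDdr2 1. Pfkfb3 and Pfkfb4, which make the activator of phosphofructokinase, differed by -0.26 (SE 0.41) and 0.12 (SE 0.22) on the log2 scale. Both overlapped between the groups.

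Hif1a, the oxygen-regulated subunit of HIF, stood at 474, 552 and 482 CPM in shDdr2 1 to 3, against 445, 437 and 545 CPM in control 1 to 3, a log2 fold change of 0.08 (SE 0.21, 95% interval -0.41 to 0.57). HIF activity is set largely through the stability of the protein, which was not measured here. The oxygen-sensing prolyl hydroxylases are themselves HIF targets. Egln3 (chr12:54178981-54203860, minus strand) stood at 1002, 667 and 840.4 CPM in shDdr2 1 to 3, against 1043, 1032 and 1004 CPM in control 1 to 3. The control tumours were close together and shDdr2 1 lay just under them, so the groups were separate by a narrow margin. The fitted log2 fold change was -0.29 (SE 0.24). Egln1 had a log2 fold change of -0.28 (SE 0.20), at 182 ± 20.0 CPM in shDdr2 and 222 ± 30.7 CPM in control tumours (SD, n = 3).

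Adm, which encodes the vasodilator peptide adrenomedullin, had the lowest fitted value of all 33 members. Adm (chr7:110627661-110629820, plus strand) stood at 25.7, 51.1 and 63.5 CPM in shDdr2 1 to 3, against 76.5, 92.3 and 76.6 CPM in control 1 to 3. All 3 shDdr2 tumours lay below all controls, with shDdr2 1 lowest. In the edgeR fit the log2 fold change came to -0.81 (SE 0.33), and its 95% interval of -1.58 to -0.03 left out 0, although the adjusted edgeR p was 1.00. The estimate was -0.51 without shDdr2 1 and -1.09 without shDdr2 3. Endothelial markers (6 of 6 in the table) were also lowest in shDdr2 1, with summed levels of 67.8, 167 and 329 CPM in shDdr2 1 to 3, against 110.0, 192 and 198 CPM in control 1 to 3. Their part in the values of Adm was not tested.

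Ndrg1, a stress-induced gene of growth arrest (chr15:66929318-66969640, minus strand), stood at 435, 247 and 481 CPM in shDdr2 1 to 3, against 515, 493 and 639.7 CPM in control 1 to 3. The groups did not overlap, with shDdr2 2 far below the rest. Its log2 fold change was -0.50 (SE 0.30), and -0.26 without shDdr2 2. Car9, a carbonic anhydrase that helps to export acid, stood at 11.8, 8.38 and 6.49 CPM in shDdr2 1 to 3, against 14.7, 10.99 and 18.4 CPM in control 1 to 3. Only shDdr2 1 and control 2 crossed. The fitted log2 fold change was -0.72 (SE 0.33), and -0.98 without shDdr2 1.

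Bnip3, a receptor for mitophagy, and Higd1a, a mitochondrial inner-membrane protein, followed a pattern like that of Ldha and Pgk1. Bnip3 stood at 464, 129 and 179.6 CPM in shDdr2 1 to 3, against 343, 213 and 243 CPM in control 1 to 3. Higd1a stood at 164, 52.1 and 50.1 CPM in shDdr2 1 to 3, against 93.6, 78.6 and 79.0 CPM in control 1 to 3. In both genes shDdr2 1 was highest and the other shDdr2 tumours were below every control. Their log2 fold changes were -0.05 (SE 0.48) and 0.08 (SE 0.47), but -0.79 and -0.71 without shDdr2 1, and the sign of Higd1a turned when only library totals were used for scaling.

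The 4 targets listed under feedback, chromatin and transcription all had fitted values below 0. Ankrd37, an ankyrin-repeat protein and HIF target, stood at 29.3, 12.8 and 24.6 CPM in shDdr2 1 to 3, against 47.7, 36.7 and 28.5 CPM in control 1 to 3. Control 3 and shDdr2 1 were nearly equal, and shDdr2 2 was lowest. Its log2 fold change was -0.76 (SE 0.35), and -0.48 without shDdr2 2. Kdm3a, a histone H3 lysine demethylase (chr6:71588972-71632990, minus strand), stood at 115, 113 and 134 CPM in shDdr2 1 to 3, against 166, 142 and 137 CPM in control 1 to 3, without overlap. The fitted log2 fold change was -0.30 (SE 0.19). Bhlhe40, a transcriptional repressor, stood at 97.9, 152 and 262 CPM in shDdr2 1 to 3, against 249.6, 251 and 295 CPM in control 1 to 3, a log2 fold change of -0.64 (SE 0.35). Leaving out shDdr2 1 gave -0.36, and leaving out shDdr2 3 gave -1.09. The shDdr2 3 tumour lay within the control range. Mxi1, an antagonist of MYC, had a log2 fold change of -0.23 (SE 0.20), with overlap.

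Control 1, which was highest for Aldoa, Egln3, Ankrd37, Kdm3a, Mxi1 and P4ha2, also stood apart in erythroid markers (4 of 5 in the table). Their summed level was 62.6, 25.1 and 46.6 CPM in shDdr2 1 to 3, against 596, 56.0 and 46.1 CPM in control 1 to 3, with Hba-a2 and Hbb-bs the most abundant. The part of blood in these values was not tested. Without control 1 the log2 fold changes were 0.0044 for Aldoa, -0.27 for Egln3, -0.53 for Ankrd37, -0.20 for Kdm3a, -0.12 for Mxi1 and -0.27 for P4ha2.

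The collagen prolyl hydroxylases P4ha1 and P4ha2, which let collagen chains fold into a stable helix, are HIF targets that act on collagen, the ligand of Ddr2. P4ha1 (chr10:59323296-59373304, plus strand) stood at 115, 104 and 116 CPM in shDdr2 1 to 3, against 129.98, 136 and 134 CPM in control 1 to 3. The groups were separate and each had little spread. Its log2 fold change was -0.25 (SE 0.17, 95% interval -0.66 to 0.15), and it stayed between -0.29 and -0.21 whichever library was left out. P4ha2 stood at 99.9, 98.6 and 139 CPM in shDdr2 tumours, against 162, 119 and 154 CPM in control tumours, a log2 fold change of -0.37 (SE 0.23). Fibroblast markers (7 of 7 in the table) did not follow that pattern, with summed levels of 1198, 3558 and 9879 CPM in shDdr2 1 to 3, against 2327, 4087 and 4992 CPM in control 1 to 3.

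**Figure D5:**
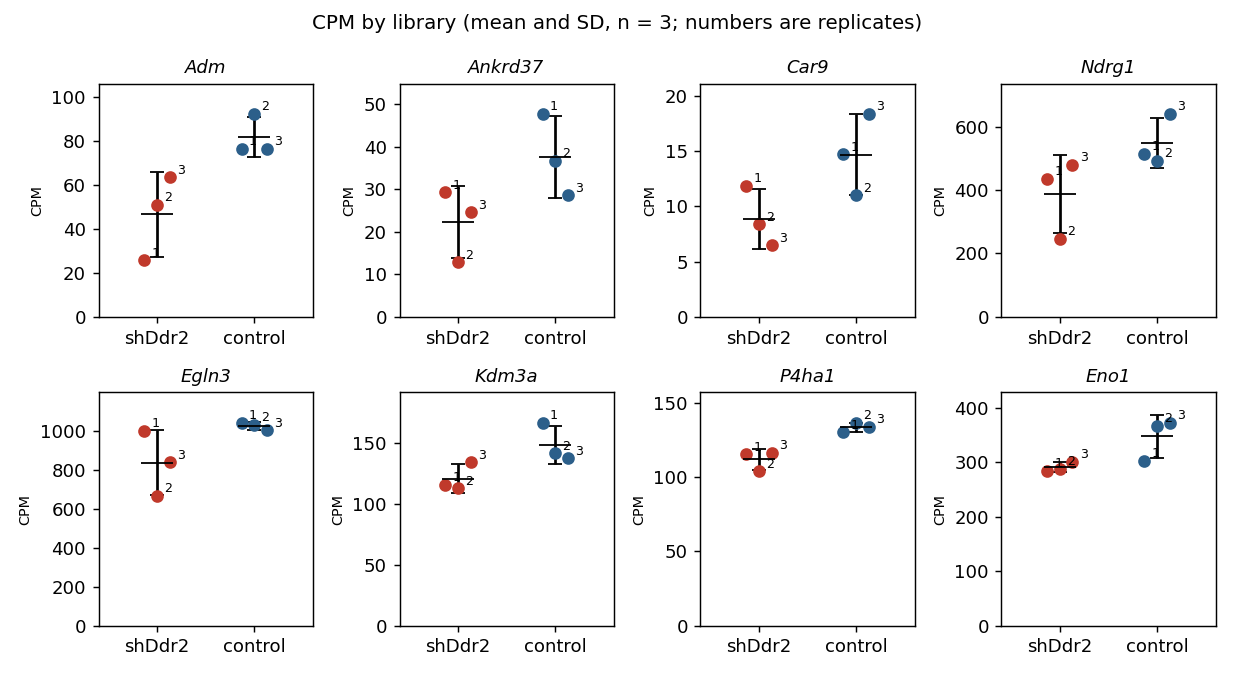
CPM by library (vertical axes, from 0) of the 6 members whose groups did not overlap, Adm, Ndrg1, Egln3, Kdm3a, P4ha1 and Eno1, and of Ankrd37 and Car9; red dots are shDdr2 tumours 1 to 3, blue dots control tumours 1 to 3, and bars the mean and SD (n = 3). In Egln3 the shDdr2 1 dot (1002 CPM) nearly reaches the lowest control (1004 CPM), while in P4ha1 the groups are 116 CPM or less against 129.98 CPM or more.

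The shDdr2 1 tumour, which stood apart on component 1, was the highest library for 7 members (Tpi1, Pgk1, Pgam1, Ldha, Pdk1, Bnip3 and Higd1a) and the lowest for 12. These are 21.2% and 36.4% of the 33, against 32.6% and 34.6% of all tested genes, so the first share was below that of all genes and the second near it. Control 3 was the highest library for 12 members (36.4%) and the lowest for 0, against 8.97% and 8.96% of all tested genes. The 7 had a median transcript length of 1775 bases and the 12 one of 2998.5 bases. Over 13464 genes with a length, deviations in shDdr2 1 were higher for shorter transcripts, with a median of 0.47 in the shortest of 4 length classes and -0.50 in the longest (Spearman rho -0.50 across genes, a description). In shDdr2 3 the relation ran the other way, at -0.27 and 0.23. The sum of keratinocyte markers (6 of 6 in the table) was also highest in shDdr2 1. It stood at 3433, 739 and 562 CPM in shDdr2 1 to 3, against 931, 783 and 587 CPM in control 1 to 3. Krt10 and Krtdap made up most of the sum in shDdr2 1, and Ivl was highest in control 1 instead. The part of transcript length or of keratinocyte RNA in the members' values was not tested.

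Without shDdr2 1, 7 of 33 members were lower at an unadjusted edgeR p under 0.05 (Egln3, Car9, Adm, Bnip3, Ankrd37, Higd1a and Pgk1), against 3.61% of all genes. None passed adjustment over all genes, with a lowest adjusted edgeR p of 0.632 among them. Without shDdr2 3, 2 members (Bhlhe40 and Adm) were, against 1.24% of all genes. Without shDdr2 2 no member had an unadjusted edgeR p under 0.05 on the lower side, against 0.355% of all genes. Without control 2 it was Car9 alone, against 0.409% of all genes, and without control 1 or control 3 none, against 0.485% and 0.347%. The unadjusted edgeR p of Adm was thus no longer under 0.05 without shDdr2 2 or without any 1 of the controls, nor with upper quartile scaling or library totals only. Deviations of same-numbered tumours correlated across genes (0.253 to 0.299), but those of shDdr2 2 and control 3 did so as highly (0.254). With the replicate number as a block, edgeR called 0 genes. At an unadjusted edgeR p under 0.05, 3 of 33 members (Bhlhe40, Adm and Ankrd37) were then lower, against 0.704% of all genes.

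Genes of the same pathway outside the 33 were divided. Of 41 further HIF targets, 31 had fitted values below 0, with a median log2 fold change of -0.17, and 0 were called by edgeR. Ddit4, an inhibitor of mTORC1, stood at 181, 125 and 162 CPM in shDdr2 1 to 3, against 244, 193 and 212 CPM in control 1 to 3, without overlap (log2 fold change -0.47, SE 0.22). Vegfa, the vascular growth factor, stood at 255, 231 and 492 CPM in shDdr2 1 to 3, against 536, 445 and 488 CPM in control 1 to 3, and Inhba, an activin subunit, had a log2 fold change of -0.66 (SE 0.34). Ppp1r3c, a glycogen-targeting subunit of protein phosphatase, went against these, at 4.12, 13.7 and 1.72 CPM in shDdr2 1 to 3, against 0.270, 0.717 and 0.629 CPM in control 1 to 3. DESeq2 called it (adjusted p = 0.00419), and its order over the 6 libraries is that of Pygm.

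Of 10 further components of the HIF pathway in the table, 2 were below 0 and 0 were called by edgeR, with a median of 0.15. Arnt, the partner of the alpha subunits, stood at 68.4 ± 12.999 CPM in shDdr2 and 74.8 ± 4.12 CPM in control tumours (SD, n = 3). Elob and Eloc, the elongins of the VHL ubiquitin ligase, differed by 0.24 (SE 0.33) and 0.36 (SE 0.48) on the log2 scale, with shDdr2 1 highest in both, and Arnt2, at 0.928 ± 0.474 CPM in shDdr2 and 0.640 ± 0.329 CPM in control tumours, was near the lower limit of the table. Of 18 tested genes for isozymes and other steps of glycolysis, 8 were below 0, with a median of 0.05. Higher without overlap were 3 of the 18, against 2.21% of all genes. Besides Eno3 and Pgam2 this was Gpd1, a glycerol phosphate dehydrogenase of muscle and fat (log2 fold change 3.01, SE 0.86). Fbp2, the muscle fructose bisphosphatase, had a log2 fold change of -0.56 (SE 0.46). Of 17 genes for glycogen, the pentose phosphate path and pyruvate entry, 3 were below 0, with a median of 0.14. Pdk4, the kinase of pyruvate dehydrogenase induced in fasting muscle, stood at 6.86, 38.1 and 6.89 CPM in shDdr2 1 to 3, against 0.324, 0.777 and 0.566 CPM in control 1 to 3. The groups did not overlap, the log2 fold change was 4.95 (SE 0.87), and DESeq2 called it (adjusted p = 4.72e-07), while Pdhx and Pdk2 had 0.36 (SE 0.25) and 0.45 (SE 0.34), and edgeR called 0 of these.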

How the data were processed

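Poly-A selected RNA of 6 whole tumours was sequenced as paired-end reads, per the labels. Bowtie2 2.1.0, RSEM 1.2.31, limma and the build GRCm38.p5 are listed, per the submitters' processing notes, with no role given. Deposited counts are whole numbers by Entrez number (possibly rounded estimates), whose lowest count is 1. The authors also deposited log2 values of these counts, each divided by 1 factor per library, plus 1; these served as an alternative. For annotation, strand setting and shared reads, the choice made is not given in the sources used here.

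Counts were filtered with filterByExpr (14498 genes kept), scaled by TMM and tested with edgeR 4.0.16 (quasi-likelihood, robust) in R 4.3.3, two-sided, adjusted by Benjamini-Hochberg at 0.05. The common biological coefficient of variation was 35.3%. CPM use TMM-scaled totals, and log2 CPM a prior count of 2. DESeq2 1.42.0 and limma 3.58.1 were alternatives, as were other scalings, filters, a replicate block and leaving out each library. The test was tried on simulated data. Symbols came from a RefSeq table by Entrez number (14876 matched, 419 did not), coordinates and transcript lengths from GENCODE M21 (GRCm38), and promoter sequences from RefSeq (GRCm38.p6). Copies were found with megablast.

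Replicate numbers come from the titles. Deviations of same-numbered tumours correlated across genes, at 0.299, 0.267 and 0.253, above the 0.1 used for treating them as pairs. However, shDdr2 2 and control 3 correlated as highly (0.254), and the labels do not say what a number stands for. A check for duplicate deposits of a library found none (chi-square per degree of freedom 25.3 to 234).

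The members and lists were chosen with earlier results of these data known. Named genes are all members, Ddr2, muscle-type isozymes, from each pathway list the 4 genes of smallest p, and from a marker list its 2 most abundant genes. Eno1b, Ivl and the other urothelial, epithelial and neutrophil markers were named after their values were seen.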

Additional observations from a re-analysis of the deposited data

How the results depend on the processing

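Alternatives changed 1 kind of call: DESeq2 called 34 genes higher and 6 lower in shDdr2 tumours, none of them members, where edgeR and limma called 0 under every setting. The median of the glycolytic enzymes (-0.17) was -0.18 with the replicate block and between -0.23 and -0.11 with 1 library left out. That of the other HIF targets (-0.28) was -0.28 with the block and between -0.38 and -0.24. The gap between them lay between 0.03 and 0.17 with 1 library left out. The block ended or made no call. Fitted signs of 9 members turned. With 1 library left out, the ranges were -0.42 to 0.14 for Hk1, -0.21 to 0.0044 for Aldoa, -0.61 to 0.27 for Pgk1, -0.20 to 0.19 for Pgam1, -0.34 to 0.16 for Ldha, -0.33 to 0.11 for Pdk1, -0.54 to 0.018 for Pfkfb3, -0.79 to 0.27 for Bnip3 and -0.71 to 0.37 for Higd1a. Pgk1 was at -0.017 with upper quartile scaling, -0.091 with library totals only, -0.00034 without a filter, -0.0029 with a stricter filter, -0.15 with the block, -0.13 with limma-voom and -0.15 from the deposited log2 values. Higd1a was at -0.024 with library totals, -0.15 with the block, -0.16 with limma-voom and -0.15 from the deposited values, and Pgam1 at -0.031 with library totals, -0.0031 with the block and -0.0077 on the deposited values. Ldha was at 0.0062 with DESeq2 size factors and 0.0032 with the DESeq2 test. The cause was not tested. With 3 tumours a group, the 95% interval of P4ha1, among the narrowest, still spanned -0.66 to 0.15.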
